A study of Mus musculus with 6 samples.

Results

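The collagen genes of the mouse were described in RNA from heart ventricles at postnatal day 14. They were taken as every protein-coding gene whose symbol has the form of "Col", a number, "a" and a number, which gave 44 genes among the 57010 identifiers and the 21880 protein-coding genes of the table. Of these, 11 encode fibrillar chains, 6 the chains of type IV collagen in basement membranes, 6 the chains of the beaded type VI filaments and 21 other collagens. Of the 44 genes, 23 reached 1 TPM (a transcript abundance scaled by gene length and by library) in at least 3 libraries and were tested; the other 21 are described by their levels. The groups were 3 libraries of control mice and 3 of Cend1-KO mice, in which the gene of CEND1, a protein of cell cycle exit and neuronal differentiation, is knocked out, and the title of the series places CEND1 downstream of the histone demethylase LSD1 in heart regeneration. Beyond P14 and ventricle, no strain, sex, deletion design or tissue restriction of the knockout was given. Nothing says that the libraries of a group came from different animals, so the spread that p-values measure here may be technical in part. Replicates are numbered 1, 3 and 4 in both groups by the sample titles, and values for a group are given below in that order. In the same order, the deposited columns are headed WT-5, WT-6 and WT-8 for the controls and C1KO-1, C1KO-2 and C1KO-3 for Cend1-KO.

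Collagens are matrix proteins in which chains built of repeated glycine triplets wind together into a rod-like helix. Types I and III form the load-bearing fibrils of the heart wall and are made mainly by cardiac fibroblasts, type V sets fibril diameter, and type IV forms the sheet-like network of the basement membranes around cardiomyocytes and capillaries. Type VI filaments link the basement membrane to the fibrils, and the remaining collagens sit on fibril surfaces, span the cell membrane or form short-chain networks.

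Cend1 stood at 1.44, 1.99 and 1.54 TPM in the controls while its listed value was 0 in every Cend1-KO library (log2 difference -1.40, adjusted p = 0.00111). A pair of library features bears on every collagen value. Mitochondrial transcripts took 34.9% of the TPM in Cend1-KO replicate 3 against 17.9% to 22.9% in the other 5 libraries, which lowers all other TPM in that library, and transcripts of lung cells were abundant in Cend1-KO replicates 1 and 4 and near 0 in replicate 3, as detailed with the cell type markers. The median log2 difference of all tested genes was -0.11, so each test is also given after median-of-ratios scaling, which divides a library by its median ratio to the geometric mean library and moved that median to 0.0034. The divisors were 1.05, 0.984 and 1.12 for the controls and 1.24, 0.713 and 0.979 for the Cend1-KO libraries.

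In TPM as deposited, most collagen genes had a higher mean in the Cend1-KO hearts, but none passed the test. Of the 23 tested genes, 22 had a positive log2 difference, against 37.6% of all tested genes, and the exception was Col27a1. With Cend1-KO replicates 1 and 4 both left out, 10 of the 22 turned negative as deposited, beside a median of -0.47 over all genes, and 2 (Col4a2 and Col18a1) did so after scaling. With limma, 0 of 23 passed an adjusted p of 0.05 in either direction, while 1.7% of all 13542 tested genes did, 107 of them higher (0.79%) and 123 lower (0.908%). The lowest adjusted p of a collagen was 0.136, for Col8a1. At an unadjusted p under 0.05 there were 9, all higher in Cend1-KO, against 4.98% of all genes. Levels in the 2 groups did not overlap for 3 tested genes (Col5a2, Col4a3 and Col8a1), all higher in Cend1-KO, where the share of all tested genes was 5.67%.

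After median-of-ratios scaling, 10 of the 23 tested collagens passed as higher and 0 as lower, where 6.35% of all tested genes passed as higher and 4.14% as lower (858 and 559 genes). The 10 were Col3a1, Col5a1, Col5a2, Col5a3, Col4a3, Col4a4, Col6a1, Col6a3, Col8a1 and Col14a1. All 3 Cend1-KO libraries lay above all 3 controls for 14 of the 23 tested genes, or 16 of the 44, against 18.2% of all tested genes. Many of these calls were lost in some of the fits that left out a single library. What was lost through that library and what through the smaller group was not separated. On leaving out control replicates 1, 3 and 4 in turn the count was 3, 1 and 10, where 2.36%, 2.26% and 5.47% of all genes passed as higher. On leaving out replicates 1, 3 and 4 of the knockout in turn it was 5, 7 and 8, where 4.26%, 5.9% and 5.32% passed. Col6a3 alone passed in all 6 of these fits, Col14a1 passed in 5, and Col5a2 and Col8a1 in 4. In TPM as deposited, leaving out Cend1-KO replicate 3 gave 4 calls (Col3a1, Col5a3, Col6a3 and Col14a1), where 3.65% of all genes passed as higher.

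**Figure D1:**
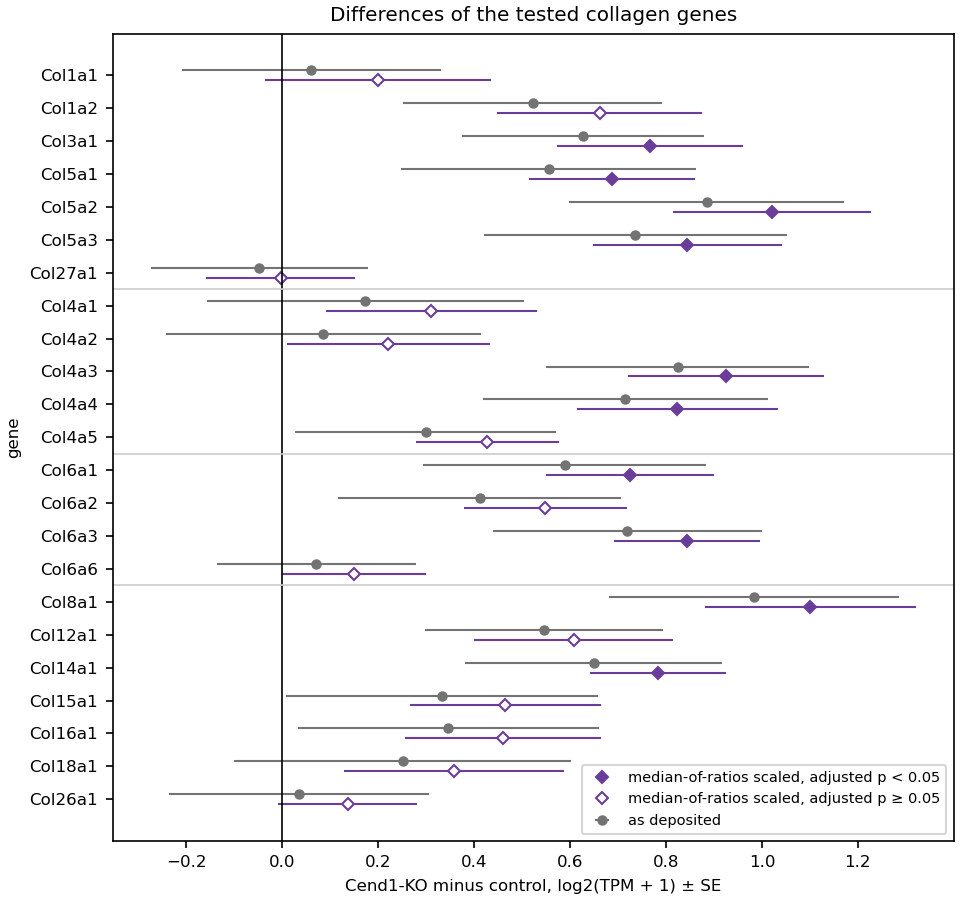
Log2 differences (Cend1-KO minus control, computed on log2(TPM + 1) values) of the 23 tested collagen genes in class order, from fibrillar at the top to other collagens at the bottom, with bars of 1 SE from limma; grey circles are TPM as deposited and purple diamonds the scaled TPM, filled where the adjusted p is under 0.05. Filled diamonds appear for 10 genes and lie between 0.69 for Col5a1 and 1.10 for Col8a1.

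The 44 collagens together made up 1044, 781.3 and 1273 TPM in the controls and 1875, 1065 and 1499 TPM in the Cend1-KO libraries. Cend1-KO replicate 3 fell inside the control range, the groups overlapped, and the log2 difference of 0.51 had an exact two-sided permutation p of 0.2. After scaling, the sums were 998.4, 794.0 and 1132 TPM in the controls and 1513, 1495 and 1532 TPM in the Cend1-KO libraries. These 3 sums were close to each other and all above the controls (log2 difference 0.65, exact p = 0.1, the smallest that 3 against 3 can give). The deposited difference was 0.32 when either control replicate 3 or Cend1-KO replicate 1 was left out. With Cend1-KO replicates 1 and 4 both left out it was 0.073 as deposited and 0.64 scaled. In bulk tissue, more cells of a type that makes collagen and more collagen RNA per cell cannot be told apart.

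**Figure D2:**
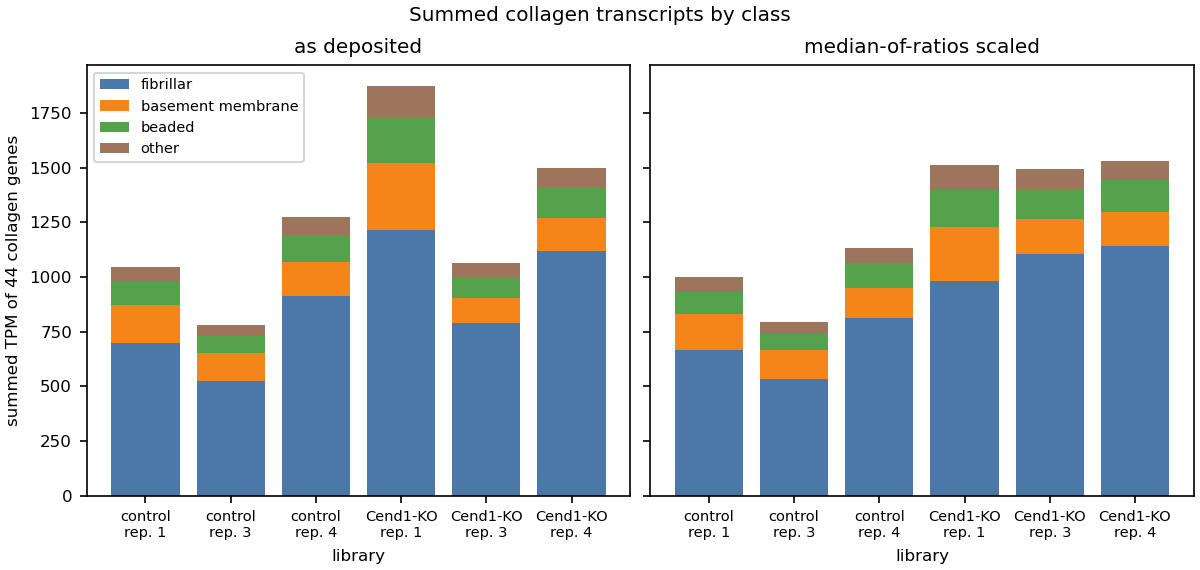
Summed TPM of the 44 collagen genes in each library (bars from 0, coloured by class), as deposited on the left and after median-of-ratios scaling on the right. As deposited the Cend1-KO bars run from 1065 to 1875 TPM and overlap the controls at 781.3 to 1273 TPM; scaled, the 3 Cend1-KO bars stand at 1495 to 1532 TPM, above every control.

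The shares of the 4 classes in the collagen pool overlapped between the groups. Fibrillar chains took 66.9%, 67.1% and 71.8% of collagen TPM in the controls and 64.8%, 74.0% and 74.6% in the Cend1-KO libraries. Type VI took 9.67% to 9.999% in the controls and 9.29% to 11.2% in Cend1-KO, and the 21 other collagens together took 6.16% to 6.61% and 5.87% to 7.55%. For type IV chains the shares were 16.6%, 16.6% and 12.3% in the controls and 16.5%, 10.7% and 9.99% in Cend1-KO. The exact p of these shares lay between 0.2 and 1. After scaling, all 3 knockout sums of the fibrillar, beaded and other classes lay above those of the controls, each at the smallest possible p of 0.1, while the type IV sum overlapped (exact p = 0.3).

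**Figure D3:**
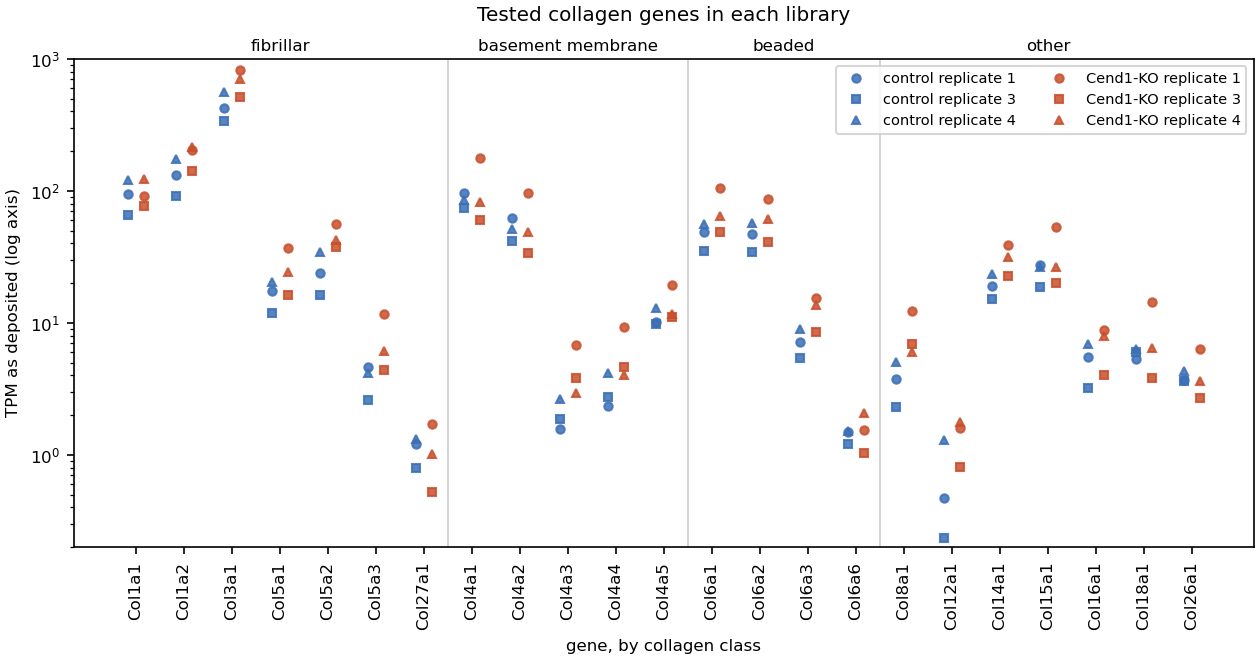
TPM as deposited (log axis) of the 23 tested collagen genes in each library, grouped by class; blue symbols are controls, red symbols Cend1-KO, and the symbol shape marks the replicate number. Cend1-KO replicate 1 is the highest library for 19 of the 23 genes, and control replicate 3 the lowest for 15. No share over all tested genes is given beside these counts.

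Among the fibrillar collagens, Col3a1 was the most abundant in every library, followed by Col1a2 and Col1a1. Col3a1 (ENSMUSG00000026043, chr1:45311538-45349706 on mm10, plus strand), whose product forms the thin, compliant type III fibrils, stood at 424, 336 and 559.9 TPM in the controls and 815, 512 and 705 TPM in Cend1-KO. Cend1-KO replicate 3 lay below control replicate 4, so the groups overlapped as deposited; scaled, they were 406, 341 and 498 against 658, 718 and 721 TPM and did not. Its log2 difference was 0.63 (SE 0.25, adjusted p = 0.260) as deposited and 0.77 (SE 0.19, adjusted p = 0.0342) scaled. The 250 bases before its annotated start are shown because it is the leading collagen of these hearts and was called after scaling; capitals mark a TATAAA motif, searched along with the CCAAT box and the GC box on both strands (RefSeq, GRCm38.p6, chr1:45311288-45311537, plus strand).
Col3a1 upstream: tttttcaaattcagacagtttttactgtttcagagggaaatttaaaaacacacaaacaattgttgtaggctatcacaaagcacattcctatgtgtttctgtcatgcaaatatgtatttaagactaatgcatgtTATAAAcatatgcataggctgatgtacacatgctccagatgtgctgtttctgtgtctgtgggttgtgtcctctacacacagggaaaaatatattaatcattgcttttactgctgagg

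Type I collagen is a trimer of the Col1a1 and Col1a2 chains, and the ratio of the 2 is given with the other chain ratios. Col1a1 stood at 94.7, 65.7 and 119.9 TPM in the controls and 90.6, 76.1 and 123 TPM in Cend1-KO, a full overlap of the groups. Its difference was 0.06 (SE 0.27, adjusted p = 0.941) as deposited and 0.20 (adjusted p = 0.603) scaled, and it turned negative without control replicate 3 (-0.17) or Cend1-KO replicate 4 (-0.13). Col1a2 stood at 132, 90.9 and 174 TPM in the controls and 203, 142 and 216 TPM in Cend1-KO, again overlapping only because Cend1-KO replicate 3 lay below control replicate 4. The Col1a2 difference of 0.52 (SE 0.27, adjusted p = 0.379) did not pass, nor did the scaled 0.66 (adjusted p = 0.0761).

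The 3 type V chains, which co-assemble with type I and limit fibril width, all passed after scaling. Col5a2 (ENSMUSG00000026042) stood at 24.02, 16.2 and 34.1 TPM in the controls, a mean of 24.8 ± 8.998 (SD, n = 3), and at 55.9, 37.6 and 42.4 TPM in Cend1-KO, a mean of 45.3 ± 9.50 (SD, n = 3). Every Cend1-KO library lay above every control already as deposited, with a log2 difference of 0.88 (SE 0.29, adjusted p = 0.155), and of 1.02 (SE 0.21, adjusted p = 0.0150) scaled. Col5a2 lies 24614 bases from Col3a1 on chromosome 1, on the minus strand. Col5a1 stood at 17.5, 12.0 and 20.3 TPM in the controls and 36.6, 16.2 and 24.2 TPM in Cend1-KO, and Col5a3 at 4.64, 2.59 and 4.16 against 11.6, 4.36 and 6.12 TPM. In both genes Cend1-KO replicate 1 was far above the rest and replicate 3 reached into the control range. Their scaled differences were 0.69 (adjusted p = 0.0343) and 0.84 (adjusted p = 0.0257).

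Col27a1, a fibrillar chain best known from cartilage, was the only tested collagen with a negative difference. It stood at 1.21, 0.796 and 1.32 TPM in the controls and 1.71, 0.522 and 1.02 TPM in Cend1-KO, with the highest and the lowest library both in the Cend1-KO group. The difference was -0.05 (SE 0.23, adjusted p = 0.945) and changed sign to 0.060 once mitochondrial and hemoglobin genes were removed, so no direction can be read. The other 4 fibrillar genes were under the filter. Col2a1, the main collagen of cartilage, did not exceed 0.0184 TPM, and Col11a2 and Col24a1 stayed at or under 0.219 TPM. Col11a1 stood at 0.188, 0.178 and 0.315 TPM in the controls and 0.346, 0.476 and 0.738 TPM in Cend1-KO, without overlap as deposited but with overlap once scaled.

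In the basement membrane class, Col4a3 and Col4a4, chains of the restricted type IV trimer known from kidney and lung basement membranes, passed after scaling. Col4a1 and Col4a2, which form the widespread trimer, and Col4a5 did not pass as deposited or scaled with all libraries. Col4a1 stood at 96.5, 73.6 and 84.5 TPM in the controls and 177, 59.6 and 81.8 TPM in Cend1-KO, and Col4a2 at 62.4, 41.6 and 51.7 against 96.1, 34.1 and 48.9 TPM. For both genes Cend1-KO replicate 1 was the highest of the 6 libraries and replicate 3 the lowest. The differences of 0.17 (SE 0.33, adjusted p = 0.846) and 0.09 (SE 0.33, adjusted p = 0.930) rested on Cend1-KO replicate 1, without which they were -0.27 and -0.32. With Cend1-KO replicates 1 and 4 both left out they were -0.49 (adjusted p = 0.0471) and -0.57 (adjusted p = 0.0414) as deposited, where 40.8% of all genes were called lower. These 2 genes face away from each other and their annotated records share 22 bases, and since the library kit is not stated to mark strand, reads there cannot be told apart.

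Col4a3 (ENSMUSG00000079465) stood at 1.56, 1.87 and 2.66 TPM in the controls and 6.79, 3.85 and 2.95 TPM in Cend1-KO. All 3 Cend1-KO libraries were above all controls, replicate 4 only narrowly. Its difference was 0.82 (SE 0.27, adjusted p = 0.168) as deposited and 0.93 (SE 0.20, adjusted p = 0.0210) scaled. Col4a4 (ENSMUSG00000067158) stood at 2.35, 2.76 and 4.19 TPM in the controls and 9.27, 4.63 and 4.01 TPM in Cend1-KO, so that replicate 4 fell just under control replicate 4; its scaled difference was 0.82 (adjusted p = 0.0354). Lung markers were abundant in Cend1-KO replicates 1 and 4, and their part in these differences was not tested. Scaled Col4a3 in Cend1-KO replicate 3, the library with 34.9% mitochondrial TPM and the divisor of 0.713, was 5.40 TPM against a control maximum of 2.36 TPM. Both genes passed in the scaled fit with Cend1-KO replicates 1 and 4 left out (differences 1.14 and 0.95, adjusted p = 0.00866 and 0.0243), which called 7.01% of all genes higher. The lone remaining library is assumed there to vary like the controls. Both chains start from a shared spacer of 71 bases, transcribed outward in opposite directions; it is shown as the stretch that both starts have in common, and it holds none of the motifs searched (GRCm38.p6, chr1:82586850-82586920, minus strand, on which Col4a4 is read).
Col4a4-Col4a3 spacer: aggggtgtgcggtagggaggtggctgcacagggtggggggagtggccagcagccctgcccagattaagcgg

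Col4a5, the X-linked chain that joins the same trimer, stood at 10.1, 9.82 and 12.97 TPM in the controls and 19.5, 11.0 and 11.7 TPM in Cend1-KO, with only replicate 1 above the controls. Its difference was 0.30 (SE 0.27, adjusted p = 0.632) as deposited and 0.43 (adjusted p = 0.0945) scaled. Col4a6, which starts 1308 bases from Col4a5, did not exceed 0.725 TPM and was not tested.

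Of the type VI chains, Col6a1 and Col6a3 passed after scaling and Col6a2 and Col6a6 did not. Col6a3 (ENSMUSG00000048126), the long chain that completes the classical type VI trimer, stood at 7.11, 5.43 and 8.93 TPM in the controls and 15.5, 8.56 and 13.7 TPM in Cend1-KO. As deposited, only Cend1-KO replicate 3 fell within the control range; scaled, the 3 knockout libraries stood at 12.5, 12.0 and 13.98 TPM, above controls at 6.79, 5.51 and 7.95 TPM. The difference was 0.72 (SE 0.28, adjusted p = 0.242) as deposited and 0.84 (SE 0.15, adjusted p = 0.00893) scaled, the lowest scaled adjusted p among the collagens. Its upstream sequence is shown for that reason; it holds none of the motifs searched on either strand (GRCm38.p6, chr1:90843972-90844221, minus strand).
Col6a3 upstream: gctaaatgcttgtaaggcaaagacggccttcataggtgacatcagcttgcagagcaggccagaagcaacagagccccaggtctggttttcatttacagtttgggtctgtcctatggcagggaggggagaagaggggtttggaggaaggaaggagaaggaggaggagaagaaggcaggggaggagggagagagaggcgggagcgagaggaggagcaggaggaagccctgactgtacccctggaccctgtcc

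Col6a1 stood at 48.7, 34.7 and 56.0 TPM in the controls and 105.5, 48.3 and 64.5 TPM in Cend1-KO, and its neighbour on chromosome 10, Col6a2, at 47.1, 34.2 and 56.7 against 87.2, 40.6 and 61.6 TPM. Both had replicate 3 of the knockout inside the control range and replicates 1 and 4 above it. The scaled differences were 0.73 (adjusted p = 0.0292) for Col6a1 and 0.55 (adjusted p = 0.0678) for Col6a2. Col6a6 stood between 1.04 and 2.08 TPM in all libraries, with both extremes in Cend1-KO and a difference of 0.07 (adjusted p = 0.904). Col6a4 stayed at or under 0.0643 TPM. Col6a5 was listed at 0 in control replicate 3 and reached 0.746 TPM in Cend1-KO replicate 4.

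Among the other collagens, Col8a1 had the largest difference of all tested collagen genes. Col8a1 (ENSMUSG00000068196), a short-chain network collagen of vessel walls and of heart fibroblasts, stood at 3.76, 2.31 and 5.03 TPM in the controls, a mean of 3.70 ± 1.36 (SD, n = 3), and at 12.3, 6.92 and 6.001 TPM in Cend1-KO, a mean of 8.39 ± 3.38 (SD, n = 3). Every Cend1-KO library exceeded every control. The difference was 0.98 (SE 0.30, adjusted p = 0.136) as deposited and 1.10 (SE 0.22, adjusted p = 0.0146) scaled. With Cend1-KO replicates 1 and 4 left out, which leaves a single Cend1-KO library, the scaled Col8a1 difference was 1.28. Its upstream sequence is shown for this difference; capitals mark the 4 matches to GGGCGG, written here as the reverse complement CCGCCC (GRCm38.p6, chr16:57754738-57754987, minus strand).
Col8a1 upstream: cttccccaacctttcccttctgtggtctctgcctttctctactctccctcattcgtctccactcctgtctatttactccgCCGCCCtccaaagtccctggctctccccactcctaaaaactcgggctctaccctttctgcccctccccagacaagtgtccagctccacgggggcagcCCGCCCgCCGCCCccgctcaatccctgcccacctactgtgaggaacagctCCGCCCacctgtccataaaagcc

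Col14a1, which binds the surface of type I fibrils, stood at 18.9, 15.2 and 23.3 TPM in the controls and 38.6, 22.5 and 31.4 TPM in Cend1-KO. Scaled, the 3 knockout libraries came within 31.2 to 32.1 TPM, above controls at 15.4 to 20.7 TPM, with a difference of 0.78 (SE 0.14, adjusted p = 0.00934). Col12a1, a close relative on the same fibrils, stood at 0.472, 0.236 and 1.31 TPM in the controls and 1.59, 0.806 and 1.79 TPM in Cend1-KO. It overlapped between the groups and did not pass on either scale (0.55, adjusted p = 0.314; scaled 0.61, adjusted p = 0.0890). Col16a1, of the same fibril-associated group, stood at 5.47, 3.20 and 6.93 TPM against 8.82, 4.05 and 7.92 TPM and did not pass (0.35, adjusted p = 0.631).

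Col15a1 and Col18a1 are the multiplexins, basement membrane proteoglycans of which the latter is the precursor of endostatin. Col15a1 stood at 27.5, 18.6 and 26.7 TPM in the controls and 52.9, 19.9 and 26.4 TPM in Cend1-KO, and Col18a1 at 5.29, 5.999 and 6.39 against 14.4, 3.796 and 6.42 TPM. In both genes Cend1-KO replicate 1 stood far above the rest, and for Col18a1 Cend1-KO replicate 3 lay below every control. The differences of 0.33 (adjusted p = 0.664) and 0.25 (adjusted p = 0.777) did not pass and were -0.06 and -0.20 without Cend1-KO replicate 1. In Col26a1, whose function is little known, replicate 1 was also the highest, with 3.67, 3.65 and 4.32 TPM in the controls and 6.35, 2.68 and 3.61 TPM in Cend1-KO, a difference of 0.04 (adjusted p = 0.964).

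Of the 14 other collagens under the filter, Col28a1, a relative of type VI known from peripheral nerve, did not overlap between groups on either scale: it stood at 0.172, 0.145 and 0.124 TPM in the controls and 0.709, 0.563 and 0.425 TPM in Cend1-KO. The transmembrane collagen Col13a1 stood at 0.377, 0.246 and 0.458 TPM against 1.06, 0.447 and 1.15 TPM, overlapping only through Cend1-KO replicate 3. Col23a1, also transmembrane, reached 1.88 TPM in Cend1-KO replicate 1, the highest value among the 21 untested genes, and 0.588 to 0.976 TPM in the other 5 libraries. Col8a2, the partner of Col8a1, stood at 0.764, 0.362 and 1.56 TPM in the controls and 1.02, 0.615 and 0.775 TPM in Cend1-KO, with both extremes in the controls. Col9a2 reached 1.36 TPM and was within 0.399 to 0.911 TPM elsewhere. Col9a3, Col20a1 and Col25a1 did not exceed 0.281, 0.166 and 0.271 TPM. Across all classes, 8 of the 44 genes stayed under 0.1 TPM in every library. They were Col2a1, Col6a4, Col7a1, Col9a1, Col10a1, Col17a1, Col19a1 and Col22a1.

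Over all members, tested or not, the median log2 difference was 0.30 for fibrillar, 0.24 for basement membrane, 0.38 for beaded and 0.04 for other collagens, beside -0.11 for all tested genes. Scaled, the medians were 0.36, 0.37, 0.47 and 0.09, beside 0.0034. The deposited medians rested in part on single libraries: in the same class order they were 0.27, 0.029, 0.22 and 0.014 without Cend1-KO replicate 1, beside -0.28 for all genes. With Cend1-KO replicates 1 and 4 both left out they were 0.024, -0.00044, 0.039 and -0.0036, beside -0.47, and scaled in that setting 0.45, 0.34, 0.40 and 0.067, beside -0.00076. Most of the 21 other collagens are near 0 TPM, where the pseudocount of 1 holds the difference near 0.

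Features that the choice of genes did not use were read from the annotation. The longest uninterrupted run of triplets that begin with a glycine codon was 337 to 344 triplets in 9 of the 11 fibrillar genes, and 216 and 217 in Col24a1 and Col27a1. It was 39 to 66 in type IV, 37 to 87 in type VI and 23 to 113 in the other collagens. Promoter windows from RefSeq were present for 35 of the 44 genes (38 windows) and 17 of the 23 tested. In the 250 bases before the start, on both strands, TATAAA was found in 13.2% of the collagen windows and 12.4% of all 32851 windows, CCAAT in 34.2% and 33.8%, and GGGCGG in 57.9% and 32.7%. Among the windows of collagens called after scaling, TATAAA occurred in Col3a1, CCAAT in Col5a3, and GGGCGG in Col5a1, Col5a3 and Col8a1.

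Ratios between chains do not depend on how a library is scaled, and 4 of the 8 ratios computed separated the groups. No share over other gene pairs is given beside this count, and Col1a1 is part of both type I and type III ratios below. The ratio of Col1a1 to Col1a2 was 0.719, 0.722 and 0.691 in the controls, within a narrow band, and 0.447, 0.537 and 0.569 in Cend1-KO, all lower (log2 difference -0.46). Col3a1 stood at 4.48, 5.11 and 4.67 times Col1a1 in the controls and at 8.998, 6.73 and 5.74 times in Cend1-KO, all higher (log2 difference 0.57). The ratio of Col8a1 to Col8a2 was 4.92, 6.39 and 3.22 in the controls and 12.0, 11.3 and 7.74 in Cend1-KO (log2 difference 1.12), with Col8a2 under the filter. A smaller separation was seen for Col6a1 over Col6a2, at 1.03, 1.02 and 0.988 against 1.21, 1.19 and 1.05 (log2 difference 0.18). Each of these 4 had an exact two-sided permutation p of 0.1, the smallest possible, and 0.2 after Benjamini-Hochberg adjustment over the 8 ratios, so none can pass 0.05 in this design. Leaving out one library at a time, the Col1a1 to Col1a2 difference ranged from -0.54 to -0.36. The ratios Col4a1 to Col4a2, Col5a1 to Col5a2, Col6a3 to Col6a1 and Col4a1 to Col1a1 overlapped between groups, with differences of 0.09, -0.33, 0.20 and 0.11 and exact p of 0.3, 0.2, 0.3 and 0.9.

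**Figure D4:**
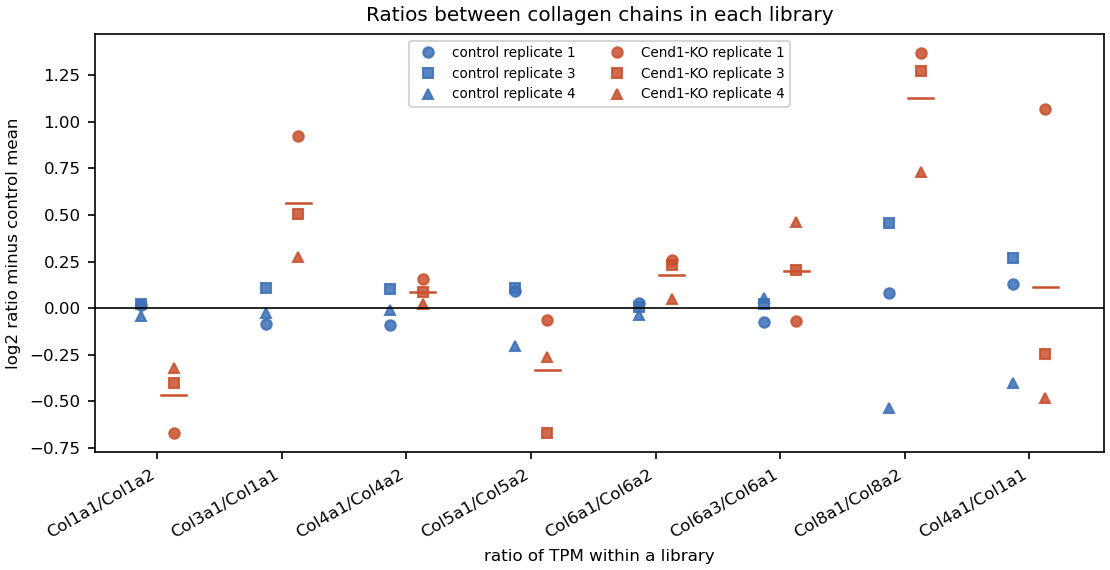
Log2 ratios between collagen chains in each library, each minus the mean of the 3 controls for that ratio; blue symbols are controls, red symbols Cend1-KO, and the short red line is the Cend1-KO mean. The Cend1-KO libraries all lie below the controls for Col1a1/Col1a2 (mean -0.46) and all above for Col3a1/Col1a1 (0.57), Col6a1/Col6a2 (0.18) and Col8a1/Col8a2 (1.12).

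The genes that make, trim, break down and sense collagen were read from lists of the pathway. The counts of each list stand beside 0.79% of all tested genes called higher as deposited and 6.35% after scaling. In TPM as deposited 2 genes passed, both higher in Cend1-KO: Timp4 and Ccn2. Timp4, an inhibitor of matrix metalloproteinases, stood at 1.24, 1.74 and 1.25 TPM in the controls and 13.99, 7.78 and 7.60 TPM in Cend1-KO. The control values were close to the filter of 1 TPM. The groups lay far apart, with a difference of 2.12 (SE 0.26, adjusted p = 0.00144). Timp4 passed in the alternatives followed for it, with adjusted p of at most 0.0036. With no filter, limma called 0 of 30114 genes, so neither Timp4 nor Ccn2 passed there. Ccn2, the connective tissue growth factor, which TGF-beta induces and which promotes collagen synthesis, stood at 21.6, 19.9 and 25.8 TPM in the controls and 80.8, 49.0 and 48.9 TPM in Cend1-KO. The groups did not overlap and the difference was 1.34 (SE 0.26, adjusted p = 0.0196), which no longer passed without control replicate 1 (1.31, adjusted p = 0.0693) or control replicate 3 (1.26, adjusted p = 0.103).

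Among 24 enzymes and chaperones of collagen biosynthesis, 23 were tested and none passed as deposited (median difference 0.13, beside -0.11 for all genes); scaled, 1 of 23 passed, near the share of all genes, the retrieval receptor Kdelr3 (0.55, adjusted p = 0.0404). Serpinh1, the collagen chaperone HSP47, was chosen after its values were seen and stood at 218, 199 and 292 TPM in the controls and 375, 144 and 241 TPM in Cend1-KO, with both extremes in the knockout group (0.01, adjusted p = 0.991). The hydroxylase P3h2, the glycosyltransferase Colgalt2 and the isomerase Fkbp14 had differences of 0.26, 0.44 and 0.32 and did not pass on either scale. Of 13 genes for propeptide removal and crosslinking, 9 were tested, 0 passed as deposited and 6 as higher after scaling (Bmp1, Pcolce2, Adamts2, Lox, Loxl2 and Loxl3). Lox, the lysyl oxidase that crosslinks fibrils, stood at 8.72, 9.48 and 15.4 TPM in the controls and 26.4, 16.2 and 19.2 TPM in Cend1-KO, without overlap (0.84, adjusted p = 0.175; scaled 0.97, adjusted p = 0.00934). Pcolce2, which enhances removal of the C-propeptide, also did not overlap (scaled 0.69, adjusted p = 0.0219). The propeptidase Adamts3 lay lower in every Cend1-KO library, at 1.32 to 1.46 against 2.01 to 2.19 TPM, and did not pass (-0.38, adjusted p = 0.360).

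Of 16 genes for breakdown and its inhibitors, 11 were tested; beside Timp4, scaled differences passed for Mmp2 (0.85, adjusted p = 0.0091), Mmp14 (0.59, adjusted p = 0.0436), Ctsk (1.01, adjusted p = 0.00453) and Timp3 (0.75, adjusted p = 0.0249). Mmp2, the gelatinase, stood at 48.0, 38.0 and 50.3 TPM in the controls and 110.1, 55.8 and 67.3 TPM in Cend1-KO, all above the controls. Of 11 collagen receptors, 7 were tested and the fibril-sensing kinase Ddr2 (0.79, adjusted p = 0.0373) and the immune inhibitory receptor Lair1 (0.56, adjusted p = 0.0434) passed after scaling, while Itgb1 (0.63, adjusted p = 0.0882) and Cd36 (0.59, adjusted p = 0.156) did not. Of 17 basement membrane partners, 14 were tested and 4 passed after scaling: the laminin chains Lama2 and Lamc1, the linker Nid1 and the proteoglycan Agrn. Nid1, which joins laminin to type IV collagen, stood at 32.8, 24.9 and 37.5 TPM in the controls and 104.5, 52.3 and 58.1 TPM in Cend1-KO, without overlap (1.10, adjusted p = 0.0729; scaled 1.24, adjusted p = 0.00305). Lamb1 did not pass (scaled 0.66, adjusted p = 0.0572). Of 15 inducers, 14 were tested; beside Ccn2, the receptor Tgfbr2 passed as higher after scaling (0.90, adjusted p = 0.00877). Pdgfa lay lower in all 3 Cend1-KO libraries and did not pass (scaled -0.40, adjusted p = 0.0869).

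Fibroblast marker sums were higher in every Cend1-KO library than in any control. The summed TPM of 7 fibroblast markers was 992 to 1777 in the controls and 2286 to 3552 in Cend1-KO, 1008 to 1580 and 2428 to 3208 scaled. Dcn was the largest part of each sum, at 593, 468 and 968 TPM in the controls and 1891, 1306 and 1176 TPM in Cend1-KO. Of the 7, 1 passed as deposited, Lum (1.36, adjusted p = 0.0372), and 4 passed scaled (Pdgfra, Dcn, Lum and Gsn). Dpt and Fbln1 overlapped between the groups as deposited and did not pass scaled (adjusted p = 0.0566 and 0.292). Pdgfra stood at 9.01, 6.58 and 10.2 TPM in the controls and 23.4, 14.9 and 14.4 TPM in Cend1-KO (scaled 1.07, adjusted p = 0.00497), while Tcf21, another defining fibroblast gene, stood at 37.1, 36.8 and 44.2 against 54.04, 24.9 and 38.8 TPM (scaled 0.07, adjusted p = 0.773). Summed markers of activated fibroblasts were 495 to 732 TPM in the controls and 693 to 1039 TPM in Cend1-KO, with 0 of 5 passing as deposited and Postn passing scaled (1.37, adjusted p = 0.0296). Cthrc1, Fap and Tnc had positive differences and did not pass. Acta2 went the other way, at 279, 395 and 368 TPM in the controls and 292, 236 and 325 TPM in Cend1-KO (-0.28, scaled -0.14). The part of fibroblasts in the collagen differences was not tested.

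Endothelial markers summed to 303 to 366 TPM in the controls and to 989, 311 and 413 TPM in Cend1-KO as deposited. Their scaled sums were 290 to 372 TPM in the controls and 422 to 798 TPM in Cend1-KO, without overlap. Mural markers summed to 217 to 307 TPM in the controls and to 718, 408 and 300.2 TPM in Cend1-KO as deposited. For the mural sums scaling gave 208 to 273 TPM in the controls and 307 to 579 TPM in Cend1-KO, also without overlap. Cend1-KO replicate 1 led in both sums as deposited. It also led for 19 of the 23 tested collagens, a count given without its share over all tested genes. Most of the mural sum was Rgs5, at 167, 179 and 252 TPM in the controls and 608, 366 and 250 TPM in Cend1-KO. Kcnj8 also had a positive difference (0.64), while those of Abcc9 (-0.29), Cspg4 (-0.08) and Notch3 (-0.08) were negative and Myh11 was not tested. None of the 8 endothelial and 6 mural markers passed as deposited, and 3 and 1 passed scaled. The 6 lung markers summed to 0.134 to 0.187 TPM in the controls and to 499.9, 0.334 and 823 TPM in Cend1-KO, with Sftpc at 0 in every control. After scaling, the highest library was Cend1-KO replicate 1 for 14 of the 23 tested collagens, replicate 4 for 8 and replicate 3 for 1. No share over all tested genes is given for the highest library. In replicates 1, 3 and 4, 21, 16 and 19 of the 23 stood above every control. The shares of all tested genes above every control in Cend1-KO replicates 1, 3 and 4 were 37.9%, 36.5% and 32.1%. Erythroid markers summed to 1389 to 4473 TPM in the controls and 10630 to 24495 TPM in Cend1-KO, with 3 of 5 passing (Hbb-bs, Hbb-bt and Alas2), and summed cardiomyocyte markers were 47500 to 52353 TPM against 26050 to 39500 TPM, with 0 of 8 passing. Mesothelial, Schwann and cartilage or valve markers summed to 6.63 to 121, 2.38 to 4.41 and 2.59 to 4.28 TPM in the controls and 21.1 to 42.2, 5.59 to 7.37 and 2.01 to 5.03 TPM in Cend1-KO, with 0, 1 (Cdh19) and 0 passing. The part of these cells in the collagen differences was not tested.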

How the data were processed

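The analysis used 3 control and 3 Cend1-KO libraries of ventricle RNA. Per the labels' protocols, RNA was extracted with TRIzol and libraries made with the NEBNext Ultra kit. The tools named, per the submitters' processing notes, are featureCounts 1.5.0-p3, HISAT2 2.0.5, fastp and CASAVA, with the build mm10. The values deposited by the authors are TPM; the method and annotation behind them are not stated in the sources used. TPM keeps no depth, so no counting interval is given. Symbols and coordinates came from GENCODE M21 for 52081 of 57010 identifiers. Testing was limited to genes that reached 1 TPM in 3 or more libraries and used limma 3.58.1 (R 4.3.3) on log2(TPM + 1), trended robust prior, no covariate, and Benjamini-Hochberg adjustment over all tested genes at 0.05; on this scale changes of low genes are understated. Sums and ratios were tested by exact two-sided permutation (Python 3.11.15). Every collagen was named, and from each pathway list the 4 smallest p-values and any gene called as deposited or scaled. A result of the inducer list is not reported here. Members and lists were chosen with earlier results of these data known. On data simulated for this comparison over 13342 genes, the fit recovered 29% of genes changed by 1 log2 unit and 81% of those changed by 2, with 4 false calls. Changed genes there were drawn only from those with a mean log2(TPM + 1) above 2, so recovery of lower genes was not measured. The simulated noise was independent, with spreads shuffled among genes and no shift of a whole library, unlike the libraries here. Alternatives were scaling, filter, pseudocount, prior, length, replicate block and left-out libraries. Where mitochondrial and hemoglobin genes were removed, 7 nuclear copies of mitochondrial genes on chromosome 1 were removed with them.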

Additional observations from a re-analysis of the deposited data

How the results depend on the processing

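Collagens called higher numbered 0 as deposited, 10 with median-of-ratios scaling, 9 with upper-quartile scaling, 8 with mitochondrial and hemoglobin genes removed and 9 with length correction, where 6.35%, 5.51%, 5.21% and 5.64% of all genes were called higher; 7 genes passed in all 4 (Col5a2, Col5a3, Col4a3, Col6a1, Col6a3, Col8a1 and Col14a1). With Cend1-KO replicates 1 and 4 left out the counts were 2 higher (Col4a3, Col8a1; 1.86% of all genes) and 2 lower (Col4a1, Col4a2; 40.8%) as deposited and 6 higher (7.01%) with median-of-ratios scaling; with that scaling and Cend1-KO replicate 3 left out it was 7. Leaving out one library gave 0 to 4 as deposited and 1 to 10 scaled. The calls of all genes, 230 as deposited, were 1417 (median-of-ratios), 1469 (upper-quartile), 1032 (mitochondrial and hemoglobin genes removed), 1453 (length), 116 (filter of 5 TPM), 5539 (Cend1-KO replicates 1 and 4 left out), 1608 (the same, scaled), 1361 (scaled, Cend1-KO replicate 3 left out) and 65 to 808 on leaving out one library. With no filter limma called 0 of 30114 genes, 2894 of them at an unadjusted p under 0.05. The median of the other collagens was 0.24 at a pseudocount of 0.1 TPM, and with Cend1-KO replicates 1 and 4 left out the medians of fibrillar, basement membrane, beaded and other collagens were 0.024, -0.00044, 0.039 and -0.0036. Without Cend1-KO replicate 1 that of the basement membrane class was 0.029. The causes were not tested.

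Differences that changed sign belonged to genes not called in TPM as deposited with all libraries (of them, Col5a1 was called after scaling): with Cend1-KO replicates 1 and 4 left out, Col1a1 -0.25, Col5a1 -0.0050, Col4a1 -0.49 and Col4a2 -0.57 (both then called lower), Col6a2 -0.15, Col6a6 -0.23, Col15a1 -0.25, Col16a1 -0.25, Col18a1 -0.52 and Col26a1 -0.41, and scaled Col4a2 -0.021 and Col18a1 -0.054; for Col27a1, 0.060 with mitochondrial and hemoglobin genes removed and 0.12 scaled with Cend1-KO replicate 3 left out. On leaving out one library, the ranges were -0.17 to 0.26 for Col1a1, -0.27 to 0.51 for Col4a1, -0.32 to 0.41 for Col4a2, -0.058 to 0.62 for Col15a1, -0.20 to 0.64 for Col18a1, -0.24 to 0.26 for Col26a1, -0.073 to 0.22 for Col6a6, -0.26 to 0.16 for Col27a1 and -0.37 to 0.41 for the Col4a1 to Col1a1 ratio. All other collagen differences kept their sign in the alternatives run.

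Replicate numbers did not pair the libraries: deviations of same-numbered libraries correlated at -0.172, 0.0441 and -0.120. With the replicate block 3 collagens were called higher (Col5a2, Col4a3 and Col8a1, where 2.7% of all genes were) and 738 genes in all. With block and median-of-ratios scaling it was 9 collagens (5.24%) and 1108 genes. Each block holds a control and a Cend1-KO library, so the block cannot change a difference or its direction, only its SE and p. Ratios tested within pairs had a smallest possible p of 0.25. Count models (DESeq2, TMM) were not run because the values are TPM, and the unknown depth limits what can be said of genes under 1 TPM. The scaled fits with one further library or Cend1-KO replicates 1 and 4 left out, and the scaled block, were chosen after seeing the data.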
